A study of Saccharomyces cerevisiae with 28 samples.

Results

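The 44 genes described here code for nucleolar rRNA processing factors of budding yeast (Saccharomyces cerevisiae), namely the small-subunit (SSU) processome and the proteins named NOP for their place in the nucleolus. They are a list of names set by role, with no threshold on a measured value, drawn up when earlier results of these data were known. They were matched by standard name to the systematic names of 44 of the 6692 genes in each deposited table. Of them, 17 carry a UTP name (for proteins found with the U3 RNA), 15 a NOP name and 12 another name. RNA sequencing measured transcript levels in 10 steady-state cultures: strain YL388 at 0.0125, 0.02, 0.025, 0.05, 0.075, 0.1, 0.15, 0.2 and 0.4% glucose, and strain YL390 at 0.2% glucose. All cultures grew in synthetic minimal medium, first with 0.2% glucose and then for 2 h at the stated concentration. Each group is 1 library with no replicate. In the labels a strain is a number without a genotype, so nothing is said below of what distinguishes YL390 from YL388. A further 18 samples of transient stress in 3 strains were not analysed here.

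Ribosome production begins in the nucleolus, where RNA polymerase I transcribes a long precursor of the rRNAs. The SSU processome assembles on the nascent precursor: the UTP-A subcomplex binds the leader first, UTP-B and the U3 small nucleolar ribonucleoprotein (snoRNP) follow, and the Mpp10 complex, helicases and GTPases join for the cleavages that release the precursor of the small subunit. Other NOP proteins build the large subunit, while box C/D and box H/ACA snoRNPs modify the rRNA, and in yeast the genes of this pathway are known to be transcribed together in fast growth and shut down together when nutrients run low.

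Levels are given as FPKM (fragments per kilobase of gene per 1e6 mapped fragments), as the authors deposited them, and changes as differences in log2(FPKM + 1). This scale understates changes of low genes; the lowest member, UTP20, had 7.95 FPKM at 0.0125% glucose. For short genes the FPKM lay above the centre of its own deposited bounds, at 0.4% by a factor of 9.07 for NOP10, 1.57 for IMP3, 1.38 for NOP15 and 1.249 to 1.28 for UTP30, NOP16, UTP23, IMP4 and NOP1, so that levels of these 8 genes are uncertain relative to other genes. The files held no counts; the width of the deposited confidence bounds implied 5.9 to 9.2 M fragments per library (M, 1e6), a reading that covers counting error only. All 44 genes were above 0 in all 10 libraries and all passed the filter on low values, which kept genes averaging 1 FPKM or more in YL388. The 44 genes lie on 14 chromosomes and span 177 (NOP10) to 7482 bp (UTP20). NOP56, NOP58, RRP9, NOP4 and NOP13 each overlap another gene; whether fragments were counted by strand is not given in the sources used here, so reads of each overlapping pair cannot be told apart. Among the 39 members with no such overlap, 38 fell in the comparison that follows.

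Transcripts of almost all of these genes were lower at low glucose. The fitted change over the whole range (0.0125% minus 0.4%, a 32-fold span of glucose) was negative for all 44 genes, and 43 fell by limma's moderated test with Benjamini-Hochberg adjustment over 6121 genes (adjusted p 0.000296 to 0.0152). None rose, and NOP10 was not called. Among all genes tested, 15.7% fell and 31.6% rose. The median change was -0.72 for the 44 genes and 0.12 for all genes tested. When libraries were scaled by the median of their ratios, which takes the median of all genes to 0.00, the members' median was -0.84. The summed FPKM of the 43 genes other than NOP10 was 3150 at 0.0125% and 5633 at 0.4%, 44.1% lower at the low concentration. The standard errors of the fitted changes ran from 0.083 to 0.22, and they measure scatter of single libraries around a straight line in log2 glucose. With glucose itself in place of its logarithm the members' median change was -0.56, against 0.10 for all genes, but no gene of any kind was called.

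The changes were of similar size across genes. A fall of 0.5 to 1 on the log2 scale was fitted for 38 members, a fall beyond 1 (2-fold) for 2, UTP23 and NOP13, and a change under 0.5 for 4, UTP30, NOP16, UTP13 and NOP10. The standard deviation of the change over the 44 genes was 0.18. The change was only weakly related to gene length and level: Spearman's rho over the 44 genes was -0.10 with log2 length and 0.07 with mean log2 level, a description of genes measured in the same libraries.

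**Figure D1:**
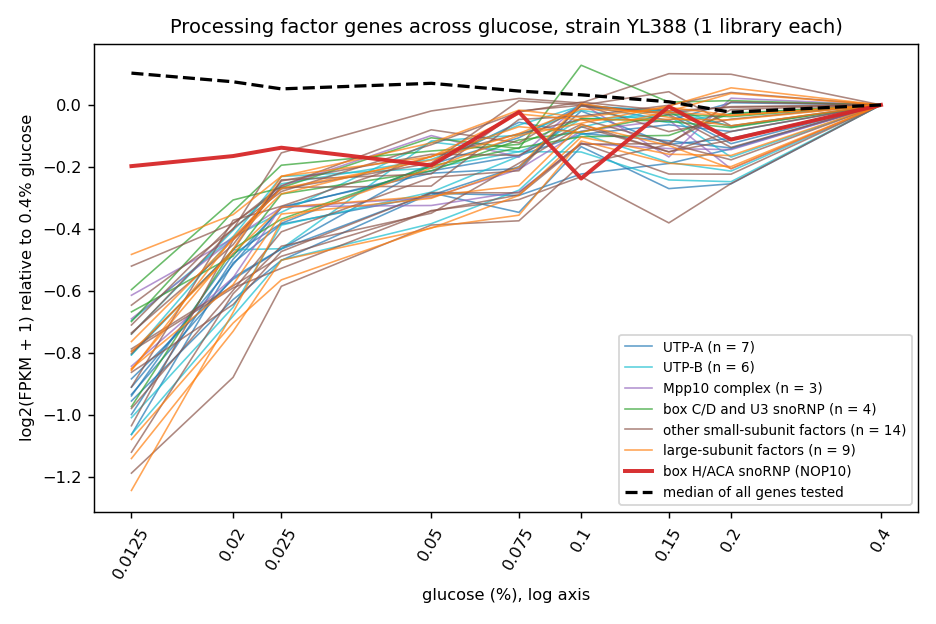
Level of each of the 44 genes relative to its own level at 0.4% glucose (log2(FPKM + 1), vertical axis) against glucose concentration (percent, log axis) in strain YL388, 1 library per point; thin lines are single genes coloured by complex, the thick red line is NOP10 and the dashed line is the median of all genes tested. All lines except that of NOP10 are lowest at 0.0125%, while the median of all genes is 0.10 higher at 0.0125% than at 0.4%.

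The sequences upstream of 4 members are shown. All 4 carry both motifs known from ribosome assembly genes: PAC (GATGAG), bound by the repressors Dot6 and Tod6, and RRPE (AAAAATTT), bound by Stb3. The 3 members with the largest falls that hold both motifs come first. NOP10 comes last and was picked as the member with the smallest change, whatever its motifs. Each window runs from 300 to 51 bases before the start codon (250 bases, gene strand, 5′ to 3′), read from the RefSeq R64 genome, in which all 44 members have the coordinates given in the files (build sacCer3 per the submitters' processing notes). Capitals mark PAC and RRPE matches on either strand, so that CTCATC is PAC and AAATTTTT is RRPE on the opposite strand.
UTP23 upstream window (chrXV:333292-333541, + strand): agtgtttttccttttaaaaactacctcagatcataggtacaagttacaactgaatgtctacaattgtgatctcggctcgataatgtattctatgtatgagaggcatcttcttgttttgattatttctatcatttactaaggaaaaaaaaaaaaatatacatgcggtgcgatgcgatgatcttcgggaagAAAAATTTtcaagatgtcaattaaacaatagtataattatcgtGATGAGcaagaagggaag
NOP13 upstream window (chrXIV:308663-308912, - strand): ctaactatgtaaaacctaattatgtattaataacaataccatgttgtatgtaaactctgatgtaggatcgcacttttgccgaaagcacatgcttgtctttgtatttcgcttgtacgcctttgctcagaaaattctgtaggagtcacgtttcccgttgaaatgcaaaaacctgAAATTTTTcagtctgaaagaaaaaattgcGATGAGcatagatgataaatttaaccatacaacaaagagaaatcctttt
NOP7 upstream window (chrVII:695117-695366, + strand): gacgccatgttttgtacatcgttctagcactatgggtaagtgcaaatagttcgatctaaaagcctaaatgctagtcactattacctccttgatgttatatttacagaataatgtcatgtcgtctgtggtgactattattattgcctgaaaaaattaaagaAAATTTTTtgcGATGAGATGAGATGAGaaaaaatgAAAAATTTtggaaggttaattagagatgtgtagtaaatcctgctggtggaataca
NOP10 upstream window (chrVIII:241364-241613, + strand): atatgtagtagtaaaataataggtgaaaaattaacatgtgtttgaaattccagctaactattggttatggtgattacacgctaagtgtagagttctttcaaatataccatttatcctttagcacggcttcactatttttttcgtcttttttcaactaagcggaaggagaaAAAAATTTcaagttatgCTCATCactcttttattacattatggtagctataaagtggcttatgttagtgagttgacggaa
The genes themselves lie downstream: UTP23 (chrXV:333592-334356, + strand), NOP13 (chrXIV:307401-308612, - strand), NOP7 (chrVII:695417-697234, + strand) and NOP10 (chrVIII:241664-241840, + strand). In NOP7, 3 PAC matches overlap one another in the run GATGAGATGAGATGAG between an RRPE match on each side. NOP10 holds the same 2 motifs as UTP23 and NOP13, 108 to 130 bases before its start codon, and its transcript level changed least.

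Over all members, PAC was found in the windows of 39 of 44 genes (88.6%), against 17.7% of 5985 windows of the same length upstream of all genes. RRPE was found in 36 of 44 (81.8%), against 14.1% of all windows. Both motifs were present in 33 members (75%), against 5.31% of all windows. Both motifs together were found for 11 of 17 UTP genes and 13 of 15 NOP genes. The stress response element STRE (CCCCT), the motif of the activators Msn2 and Msn4, was in 6 members (13.6%) and in 19.2% of all windows. UTP4 and UTP22 had neither PAC nor RRPE in the window, while 73.4% of all windows had neither, and both genes fell (log2 change of -0.70 and -0.62). The 61 PAC matches lay at a median of 119 bases before the start codon and the 53 RRPE matches at 134, counted to the far end of the match. Motifs were searched on both strands, matches may overlap one another, and a match is a run of letters, not a binding site shown by any assay.

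**Figure D2:**
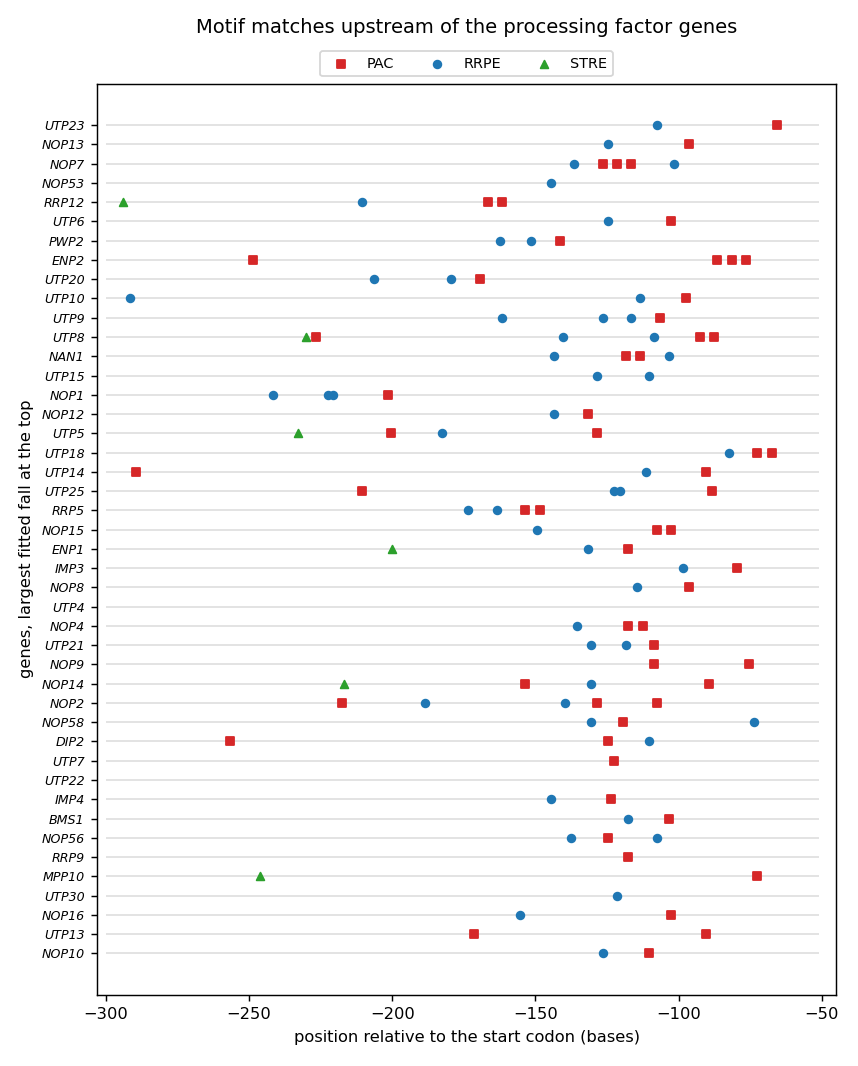
Positions of PAC (red squares), RRPE (blue circles) and STRE (green triangles) matches between 300 and 51 bases upstream of the start codon (horizontal axis, bases) of the 44 genes, ordered from the largest fitted fall at the top. PAC and RRPE matches cluster around 119 and 134 bases before the start codon along the whole order, including NOP10 at the bottom; the rows of UTP4 and UTP22 are empty.

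UTP-A, the subcomplex that binds the precursor first and whose members are also called t-UTPs, fell as a tight group. All 7 genes fell, with a median change of -0.81 and a range of -0.70 to -0.86. UTP10 (YJL109C), the largest subunit, was the steepest, with 15.4, 23.1, 25.3, 27.1, 28.9, 32.9, 30.4, 30.9 and 33.3 FPKM from 0.0125 to 0.4% glucose. The libraries at 0.0125 to 0.075% were all below those at 0.1% and above, and the fitted change was -0.86 ± 0.18 (SE; limma adjusted p = 0.00366). UTP4 (YDR324C) was the least steep, with 34.7, 43.6, 46.7, 53.1, 50.7, 58.9, 53.6, 54.2 and 64.8 FPKM. Its change was -0.70 ± 0.12 (limma adjusted p = 0.00175), and its highest library was the one at 0.4%. The other 5 subunits lay between these: UTP5 had 64.2 FPKM at 0.0125% and 124 FPKM at 0.4%, UTP9 46.3 and 90.7 FPKM, UTP15 43.3 and 87.4 FPKM, NAN1 (Utp17) 34.9 and 67.6 FPKM, and UTP8 31.8 and 60.6 FPKM. Levels per length within UTP-A differed 3.72-fold at 0.4%, between UTP10 and UTP5.

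UTP-B, which joins UTP-A and U3 on the leader, was more even in level and less even in change. At 0.4% glucose its 6 genes had 45.6 to 81.8 FPKM, a 1.79-fold span. All 6 fell, with a median change of -0.73 and a range of -0.47 to -0.91. UTP6 (YDR449C) was the steepest, with 34.5, 45.3, 51.5, 55.9, 60.3, 68.6, 64.2, 63.0 and 73.2 FPKM from 0.0125 to 0.4%, a change of -0.91 ± 0.14 (limma adjusted p = 0.00107). UTP13 (YLR222C) was the least steep, with 27.8, 33.7, 38.7, 39.5, 41.0, 40.9, 38.4, 38.2 and 45.6 FPKM. From 0.025 to 0.2% its level moved only between 38.2 and 41.0 FPKM, with lower values at 0.0125 and 0.02% and a higher one at 0.4%. The change of UTP13 was -0.47 ± 0.13 (limma adjusted p = 0.0152); it was not called without the library at 0.0125% (adjusted p = 0.0822) or without that at 0.4% (0.0542), and over all alternatives its adjusted p ran from 0.00268 to 0.157. PWP2 (Utp1) had 29.9 FPKM at 0.0125% and 61.1 FPKM at 0.4%, UTP18 46.4 and 81.8 FPKM, UTP21 31.2 and 55.2 FPKM, and DIP2 (Utp12) 27.6 and 46.7 FPKM.

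The Mpp10 complex and the U3 and box C/D proteins fell somewhat less in the median, -0.61 for 3 genes and -0.60 for 4. IMP3 (YHR148W), an Mpp10 partner, had 94.97, 116, 136, 136, 141, 157, 155, 155 and 171 FPKM from 0.0125 to 0.4% (-0.71 ± 0.11, limma adjusted p = 0.00121). MPP10 (YJR002W), the scaffold, had 58.5, 66.5, 71.3, 73.0, 77.8, 84.8, 86.9, 77.9 and 89.96 FPKM (-0.54 ± 0.09, limma adjusted p = 0.00139). Both had their lowest library at 0.0125% and their highest at 0.4%, and MPP10 had the smallest share of its fall at the low end, as described further on. The third partner, IMP4, had 99.0 FPKM at 0.0125% and 160.2 FPKM at 0.4%.

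Among the box C/D proteins, NOP1 (YDL014W), the fibrillarin methyltransferase, was the most abundant and the steepest. It had 464, 661, 706, 796, 829, 849, 852, 895 and 912 FPKM from 0.0125 to 0.4%, with each library above the one before it (-0.81 ± 0.16, limma adjusted p = 0.00291). RRP9 (YPR137W), the U3-specific protein, had 47.9, 61.5, 68.3, 70.5, 71.6, 75.9, 75.4, 74.3 and 78.3 FPKM (-0.55 ± 0.13, limma adjusted p = 0.00628). For RRP9 the 6 libraries from 0.05% upward lay within 70.5 to 78.3 FPKM. The core proteins NOP56 and NOP58 had 312 and 191 FPKM at 0.0125%, against 472 and 304 FPKM at 0.4%.

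The remaining 14 small-subunit factors all fell, with a median change of -0.72. UTP23 (YOR004W), a processome component with a PIN-like domain, had the largest fitted fall of the 44 genes. It had 69.1, 85.8, 105, 121, 122, 139, 145, 159.6 and 159 FPKM from 0.0125 to 0.4%, so each library up to 0.2% was above the one before it. The fitted change was -1.17 ± 0.14 (limma adjusted p = 0.00033), 0.45 of the level at 0.4%, and it ranked 78 among all genes tested. By the observed levels at 0.0125% and 0.4% NOP13 fell slightly more than UTP23 (-1.24 against -1.19), and without the library at 0.4% the fitted change was -1.38 for NOP13 and -1.35 for UTP23. UTP30 (YKR060W), related to ribosomal protein L1, was the least steep of this group, with 66.5, 73.3, 79.2, 84.0, 96.7, 95.8, 93.8, 87.0 and 95.8 FPKM (-0.49 ± 0.11, limma adjusted p = 0.00544). Its highest library was at 0.075%; from there to 0.2% each library was slightly below the one before it, and the one at 0.4% was higher again.

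UTP20 (YBL004W), the longest and least abundant member, had 7.95, 12.5, 14.2, 14.3, 16.7, 16.9, 17.3, 17.8 and 17.3 FPKM (-0.86 ± 0.20, limma adjusted p = 0.00643). RRP12, needed for export of both subunits, had 22.5 FPKM at 0.0125% and 50.0 FPKM at 0.4%, and RRP5, which serves both subunits, 25.1 and 48.0 FPKM. The GTPase BMS1 had 30.0 FPKM at 0.0125% and 50.6 FPKM at 0.4%, UTP14, the activator of the helicase Dhr1, 34.5 and 63.4 FPKM, and UTP22 of the UTP-C subcomplex 25.6 and 42.4 FPKM. The processome components ENP2, UTP7, UTP25 and NOP14, the Pumilio-like protein NOP9 and the assembly and export factor ENP1 had 24.96 to 47.4 FPKM at 0.0125%, against 42.3 to 76.8 FPKM at 0.4%.

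The 9 large-subunit factors all fell as well, with a median change of -0.72, about the same as the small-subunit factors. NOP13 (YNL175C), an RNA-binding protein of early large-subunit particles, had 70.6, 106, 129.6, 146, 157, 162, 168, 175 and 168 FPKM from 0.0125 to 0.4%. Its fitted change of -1.10 ± 0.22 (limma adjusted p = 0.00337) was the second largest, and the library at 0.0125% was below the other 8. NOP7 of the Nop7-Erb1-Ytm1 complex had 106 FPKM at 0.0125% and 234 FPKM at 0.4%, a change of -0.998 ± 0.15 (limma adjusted p = 0.000914), and NOP53, which brings the exosome cofactor Mtr4 to the particle, 53.1 and 113 FPKM. NOP16 (YER002W), a large-subunit assembly factor, changed least of this group, with 243, 266, 289.8, 312, 336, 331, 338, 332 and 340.0 FPKM (-0.47 ± 0.09, limma adjusted p = 0.00236). The methyltransferase NOP2 had 77.3 FPKM at 0.0125% and 135 FPKM at 0.4%, NOP4 51.6 and 88.2 FPKM, NOP8 26.0 and 47.7 FPKM, NOP12 82.5 and 149 FPKM, and NOP15 200.1 and 363 FPKM.

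NOP10, the smallest core protein of the box H/ACA snoRNPs that guide pseudouridylation, was the 1 member not called. It was listed at 8277, 8465, 8625, 8289.8, 9340.5, 8051, 9453, 8783 and 9489.7 FPKM from 0.0125 to 0.4% glucose. Its lowest library was at 0.1%, not at 0.0125%, and low and high concentrations overlapped. The fitted change was -0.17 ± 0.09 (limma adjusted p = 0.154; 0.0303 to 0.359 over the alternatives, the lowest with median-of-ratios scaling, where the change was -0.29 and was called). The level itself is uncertain: the gene spans 177 bp, and its FPKM at 0.4% was 9.07 times the centre of its own deposited bounds (990.6 to 1103). By the centre of the bounds NOP10 had 912 at 0.0125% and 1047 at 0.4%. Of 327 tested genes up to 300 bp, 29 fell and 109 rose, with a median change of 0.40. Whether the length of NOP10 bears on its small change was not tested. The other 3 core proteins of the same snoRNP fell. NHP2 had 771 FPKM at 0.0125% and 1369 FPKM at 0.4%, GAR1 674 and 1087 FPKM, and CBF5, the pseudouridine synthase, 283 and 442 FPKM.

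**Figure D3:**
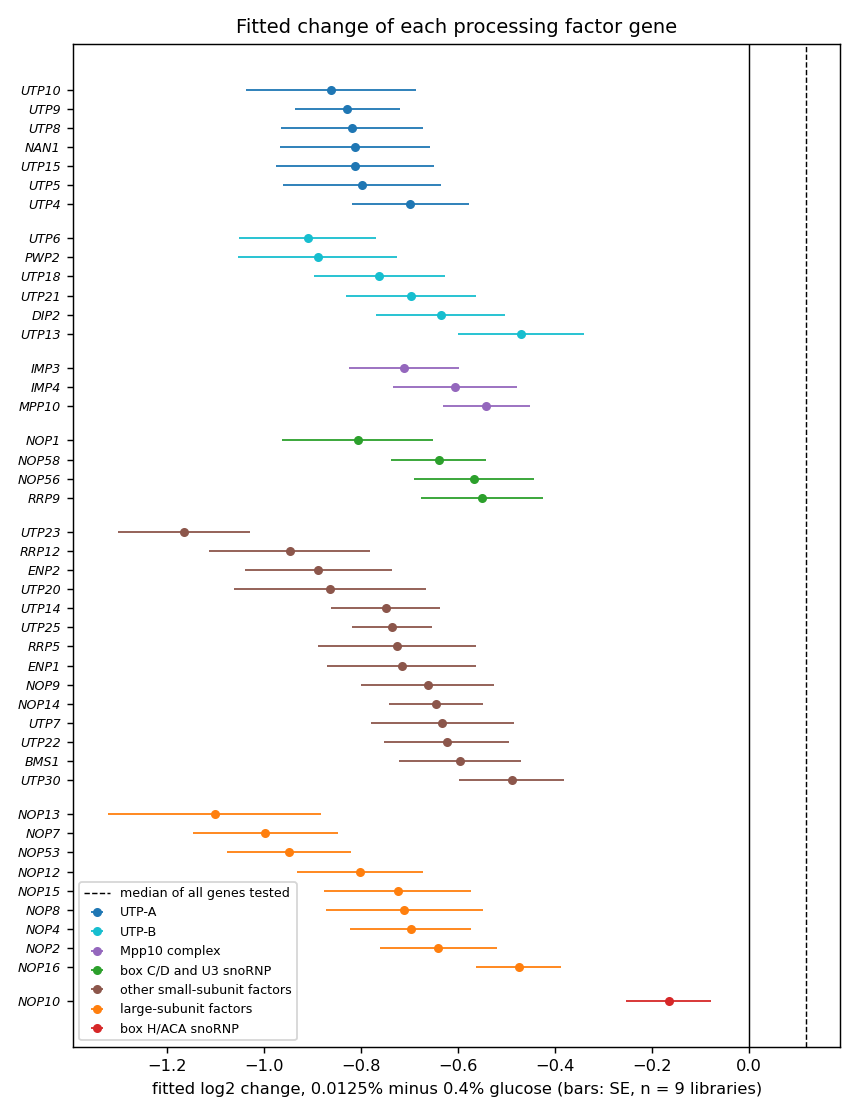
Fitted change of each gene between 0.0125% and 0.4% glucose (log2(FPKM + 1), low minus high; bars are the standard error of the limma fit over 9 YL388 libraries), grouped and coloured by complex. All 44 points lie left of 0 and of the median of all genes tested (dashed, 0.12); UTP23 at -1.17 is farthest left and NOP10 at -0.17 is closest to 0.

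The changes of UTP and NOP genes overlapped. The median change was -0.76 for the 17 UTP genes and -0.70 for the 15 NOP genes, or -0.70 for the 14 NOP genes other than NOP10, beside -0.71 for the 12 genes with other names and 0.12 for all genes tested. The UTP genes ranged from -1.17 (UTP23) to -0.47 (UTP13) and the NOP genes from -1.10 (NOP13) to -0.17 (NOP10). The difference between the UTP and NOP medians was -0.06, and it was not tested. All 17 UTP genes and 14 of 15 NOP genes fell, beside 15.7% of all genes tested. At 0.0125% the median level relative to 0.4% was 0.54 for UTP genes and 0.58 for NOP genes on the FPKM + 1 scale, against 1.07 for all genes tested.

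The fall was not even along the glucose range. In the median over the 43 genes other than NOP10, 74.7% of the observed fall lay between 0.0125 and 0.05% (range 51.4% for MPP10 to 97.0% for UTP7), and all 43 had their lowest library at 0.0125%. The highest library was at 0.4% for 31 of the 44 genes, at 0.2% for 6, at 0.15% for 2, at 0.1% for 4 and at 0.075% for 1. The interval from 0.0125 to 0.05% is the smaller part of the range in log2 glucose. Neighbouring concentrations lie at unequal ratios, so the sizes of the steps below are not directly comparable. The first step (0.0125% minus 0.02%) had a median difference of -0.33. All 44 genes were lower in the library at 0.0125%, beside 46.8% of all genes tested. The steps at 0.02% minus 0.025% and 0.025% minus 0.05% had medians of -0.15 and -0.12, with 44 and 43 genes lower, beside 41.8% and 51.9% of all genes. The next steps, 0.05% minus 0.075% and 0.075% minus 0.1%, had medians of -0.07 and -0.08, with 36 genes lower in each, beside 41.8% and 47.8% of all genes. At 0.1% minus 0.15% and 0.15% minus 0.2% the medians were 0.02 and 0.00, with 17 and 19 of 44 genes lower, beside 43.4% and 39.0% of all genes. At the last step, 0.2% minus 0.4%, the median was -0.07 and 36 genes were lower, beside 56.5% of all genes.

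**Figure D4:**
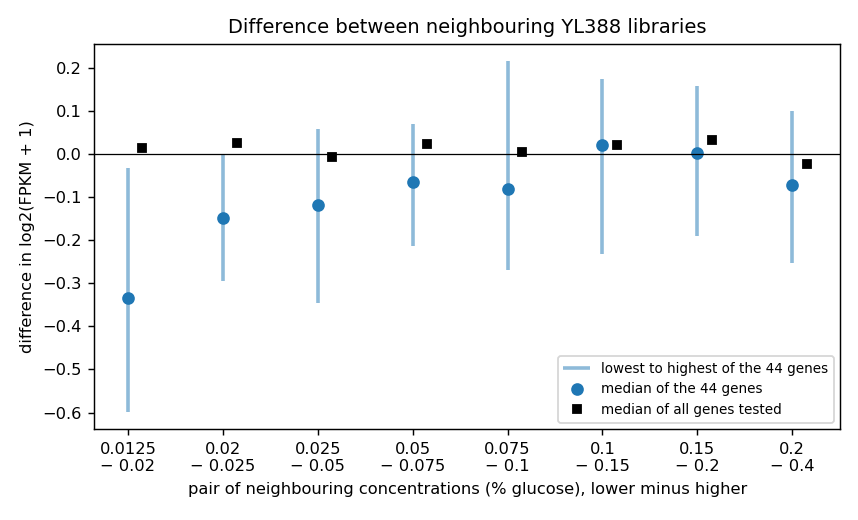
Difference in log2(FPKM + 1) between neighbouring YL388 libraries (lower minus higher glucose, vertical axis) for each of the 8 pairs of concentrations (horizontal axis); blue circles are medians of the 44 genes, bars run from the lowest to the highest gene, and black squares are medians of all genes tested. The median of the 44 genes is -0.33 at the lowest pair and 0.00 to 0.02 at the pairs between 0.1 and 0.2%. The median of all genes lies between -0.02 and 0.03. The pairs span unequal ratios of glucose, so step sizes are not directly comparable.

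A square term in log2 glucose tested this bend. It was below 0 for 27 members and above 0 for none (limma with adjustment over all genes), beside 7.38% of all genes below and 8.68% above. The bend was called for 11 of 15 NOP genes and 9 of 17 UTP genes, and for none of the 3 Mpp10 genes. For 26 of the 27 the fitted top of the curve lay inside the range. Over the 27 this top stood at a median of 0.193% glucose (0.150% for UTP7 to 0.406% for UTP23). It belongs to the fitted curve and need not be a peak of the measured levels. Between 0.2 and 0.4% the members did not decline as a set: the median difference (0.2% minus 0.4%) was -0.07 over all members. NOP1, with a fitted top at 0.199%, had 895 FPKM at 0.2% and 912 FPKM at 0.4%. UTP7 went the other way, with 80.0 and 74.7 FPKM. The bend rests on few libraries: without the library at 0.0125% no member was called, and without those at 0.05, 0.075, 0.1 and 0.4%, in turn, 8, 11, 12 and 12 members were.

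The range was also divided into bands of 3 neighbouring concentrations. In the low band (0.0125 to 0.025%) 32 members fell relative to the middle band (0.05 to 0.1%) and none rose (limma, adjusted over all genes), beside 10.5% and 17.4% of all genes tested, with a median difference of -0.42 for the members and 0.03 for all genes. The difference was negative for all 44 members. Between the middle band and the high band (0.15 to 0.4%) limma called 0 of 44 members and 0% of the 6121 genes in either direction. No member had an unadjusted p under 0.05 there, while 71 genes were lower and 535 higher at that level. The difference between the middle and high bands had a median of -0.09 for the members and was negative for all 44, against 30.1% of all genes tested. The 3 libraries of a band are neighbouring concentrations, not replicates. The count of 32 depends on single libraries: it was 2 without 0.02%, 11 without 0.05%, 1 without 0.075% and 1 without 0.1%, and 17, 14 and 18 without 0.15, 0.2 and 0.4%.

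Other genes of ribosome production were listed by role. Beside the 15.7% of all genes that fell and 31.6% that rose, 48 of 48 other large-subunit assembly factors fell, with a median change of -0.77. The steepest were SDA1, a factor for large-subunit export (40.1 FPKM at 0.0125% and 96.6 FPKM at 0.4%), and MAK16, a large-subunit assembly factor (115 and 256 FPKM). Of 33 other small-subunit factors 31 fell (median -0.62), led by MRD1 (26.1 and 50.8 FPKM), an RNA-binding protein of the early particle, and LCP5 (57.0 and 109.5 FPKM), a processome component. The kinases RIO1 and HRR25 were the 2 not called.

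Of 13 other snoRNP proteins and snoRNP assembly factors 9 fell and 0 rose (median -0.43). The steepest were SNU13 (875 FPKM at 0.0125% and 1950.4 FPKM at 0.4%), the fourth box C/D core protein, and NHP2. The 4 not called, RSA1, PIH1, TAH1 and RVB2, are assembly factors; 5 other assembly factors of the list fell, NAF1, SHQ1, HIT1, BCD1 and RVB1 (-0.59 to -0.19). Of 15 genes of RNA polymerase I and its initiation factors 11 fell and 1 rose (median -0.56). The polymerase subunits RPA34 (140 FPKM at 0.0125% and 302 FPKM at 0.4%) and RPA135 (50.2 and 110.3 FPKM) were the steepest. UAF30, a subunit of the upstream activating factor, rose (67.6 FPKM at 0.0125% and 52.4 FPKM at 0.4%). Of 18 genes of the RNA exosome and its cofactors 12 fell and 1 rose (median -0.36), with the helicase MTR4 (31.1 and 61.0 FPKM) and AIR1 of the TRAMP complex (32.4 and 57.3 FPKM) the steepest and the AIR1 paralogue AIR2 the gene that rose (45.8 and 40.6 FPKM).

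Of 12 listed regulators of these genes, 2 fell (16.7%) and 1 rose, beside 15.7% and 31.6% of all genes tested. The median change of the 12 was -0.10. TOD6, a repressor that binds PAC, had 22.5 FPKM at 0.0125% and 56.7 FPKM at 0.4%, a change of -1.11 ± 0.22 (SE; limma adjusted p = 0.00306). STB3, which binds RRPE, had 49.3 FPKM at 0.0125% and 35.1 FPKM at 0.4%, a change of 0.54 ± 0.12 (limma adjusted p = 0.00544). DOT6, the paralogue of TOD6, had 100.0 and 98.0 FPKM at the same concentrations and was not called. SCH9, a kinase downstream of TORC1 (target of rapamycin complex 1), had 43.9 and 48.7 FPKM and fell (-0.14 ± 0.05, limma adjusted p = 0.0413). The activator SFP1, the TORC1 genes TOR1, TOR2 (shared with TORC2) and KOG1, and IFH1, FHL1, HMO1 and RAP1, factors of ribosomal protein genes, were not called (log2 changes of -0.28 to 0.08). The count of 2 that fell was 5 with median-of-ratios scaling and 8 with quantile normalization. It was 1 when any 1 of the 9 libraries was left out.

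Strain YL390 was compared at 0.2% glucose, the only concentration of both strains, with 1 library each and so with no test. The difference (YL390 minus YL388) had a median of 0.04 for the 44 genes and 0.05 for all genes; 29 members were higher and 15 lower in YL390. With median-of-ratios scaling the median of the members was -0.03. None of the 44 was 2-fold apart, beside 1.66% of genes at least 2-fold lower and 1.3% at least 2-fold higher. Counting genes whose level in one library was at least 25% above that in the other, 0 members were lower and 1, NOP10, was higher in YL390, beside 6.98% and 7.41% of all genes.

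NOP10 had 11490.2 FPKM in YL390 and 8783 FPKM in YL388 at 0.2%, a ratio of 1.31, and its YL390 value was above all 9 YL388 libraries. UTP30 had 104 FPKM in YL390 and 87.0 FPKM in YL388, also above all 9 YL388 libraries. Several other members shared this. For example, NOP58 had 331 FPKM in YL390 and at most 304 FPKM in YL388, and NOP16 363 and at most 340 FPKM. UTP4 had 61.0 FPKM in YL390 and 54.2 FPKM in YL388, below its YL388 library at 0.4%. On the other side, UTP23 had 139 FPKM in YL390 and 159.6 FPKM in YL388, NOP13 158 and 175 FPKM, and UTP20 16.2 and 17.8 FPKM. These 3 YL390 values lay within the range of the YL388 libraries at other concentrations.

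When the YL390 library was set against the curve of all 9 YL388 libraries, assuming that it scatters as they do, 0 members were off the curve (limma), beside 2.81% of genes below and 0.85% above it. The smallest adjusted p among members was 0.0869 (limma), for NOP10 at 0.34 ± 0.09 above the curve. An unadjusted p under 0.05 was found for 2 of the 44 members, beside 903 of the 6121 genes kept for the slope. This test speaks of the library, not of the strain.

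**Figure D5:**
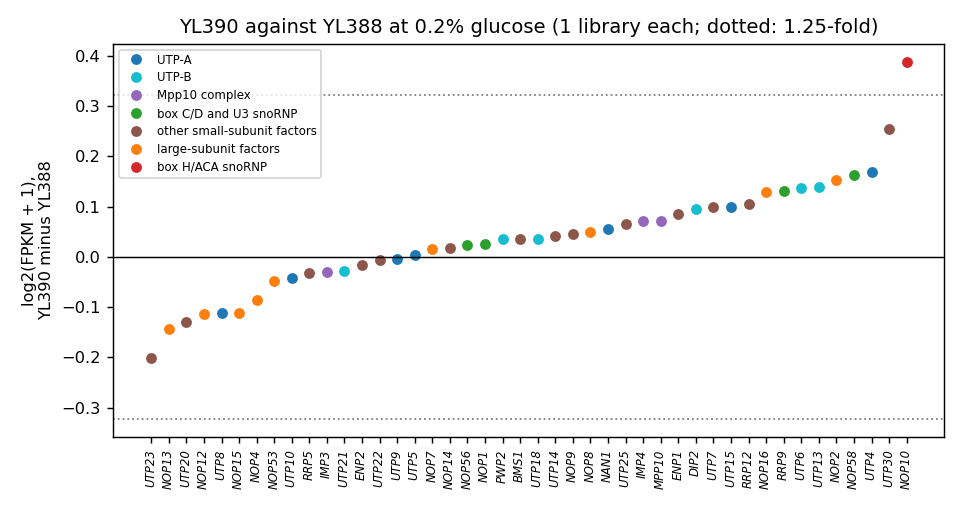
Difference between the single YL390 and YL388 libraries at 0.2% glucose (log2(FPKM + 1), YL390 minus YL388, vertical axis) for the 44 genes in order of the difference (horizontal axis), coloured by complex; dotted lines mark a level 25% above that of the other library. The differences run from -0.20 (UTP23) to 0.39 (NOP10), and NOP10 is the 1 gene outside the dotted lines.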

How the data were processed

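Transcript levels were analysed as deposited by the authors, as FPKM per gene with confidence bounds from Cufflinks per the file headers. TopHat, DESeq2 and the build sacCer3 are named beside Cufflinks in the submitters' processing notes. Their versions and options, the annotation and the strand setting were not given in the sources used here. Libraries were grouped by the strain number and glucose concentration in their labels. Levels were analysed as log2(FPKM + 1) with limma 3.58.1 (R 4.3.3), as a slope on log2 glucose, with a square term, or in 3 bands. These fits kept genes averaging 1 FPKM or more in YL388. A further fit with a term for the YL390 library kept genes averaging 1 FPKM or more over all 10 libraries (6120 genes). The shares of genes by fold between the strains used genes averaging 1 FPKM or more in the 2 libraries at 0.2% (6072 genes). Benjamini-Hochberg adjustment ran over all genes tested, with a threshold of 0.05. No concentration has a replicate, so p-values measure scatter of single libraries, which may be technical.

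Genes named with values in every library were the 2 largest and 2 smallest changes, the steepest and least steep of each group of at least 3 members, any member not called, and the 3 farthest apart between the strains in each direction. From each list of other genes the 2 steepest in each direction and every regulator were named. The members and lists were chosen with earlier results of these data known. Motifs were searched by exact letters with Python 3.11.15. Alternatives covered the pseudocount, the filter, scaling, the centre of the bounds, the intensity trend, overlapping genes, the glucose scale, single libraries and the motif window.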

Additional observations from a re-analysis of the deposited data

How the results depend on the processing

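No paired analysis was possible because each steady-state group has 1 library and no replicate number. With glucose in percent, 0 members fell, and 0 genes of each of the 6 lists. Leaving out each YL388 library in turn, 42 to 43 members fell, with a median change of -0.86 to -0.52. The square term was called for 0 to 25 members, and the low band lay below the middle band for 1 to 43. Without the filter on low values that count was 15. The list of regulators had 5 genes that fell with median-of-ratios scaling, 8 with quantile normalization, 1 with the centre of the bounds, 1 without overlapping genes and 1 without any 1 library. The median difference of YL390 from YL388 was -0.026 with median-of-ratios scaling, and 0 members were at least 25% higher with quantile normalization or against the mean of the YL388 libraries at 0.15, 0.2 and 0.4%. The cause of these moves was not tested, beyond the fewer libraries or genes that some settings leave. Of single members, 43 lost their call with glucose in percent, UTP13 also without 0.0125% or 0.4%, and NOP10 gained one with median-of-ratios scaling. With a window down to the start codon, chosen after seeing the data, PAC was in 39 members, RRPE in 37 and both in 33. Depth is known only through the width of the bounds, and each strain comparison rests on 1 library each.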

Other observations

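Leaving out the 44 members and all genes of the 6 lists, 208 tested genes held both PAC and RRPE in the same upstream window; 118 of them (56.7%) fell and 18 rose, with a median change of -0.36. The lists do not hold every gene of ribosome assembly, so some of these 208 may belong to it. Of the 5344 other genes without both motifs and outside the lists, 12.2% fell, with a median change of 0.14. From the 208 genes with both motifs, those that overlap no other gene were ranked by their change. The 5 steepest that fell were the RNA helicase gene DBP2 (61.7 FPKM at 0.0125% and 217 FPKM at 0.4%), IMD4 for guanine nucleotide synthesis (91.8 and 239.7 FPKM), the mitochondrial carrier gene YMC2 (33.0 and 73.3 FPKM), HPT1 for purine salvage (187 and 389.8 FPKM) and YBL028C (425 and 890.3 FPKM). The 5 steepest that rose were YCL048W-A (613 FPKM at 0.0125% and 50.7 FPKM at 0.4%), the respiratory genes COX17 (3991 and 1384 FPKM) and QCR2 (1198 and 583 FPKM), JID1 (64.8 and 25.9 FPKM) and YLR146W-A (1409 and 745 FPKM). These genes were ranked after their values were seen, and whether a shared upstream region with a divergent gene plays a part was not tested.

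The genes next to the members fell about as often as genes did in general. Of 88 nearest neighbours that do not overlap a member, 85 were tested; 12 fell (14.1%) and 24 rose, with a median change of 0.07, close to the 15.7% of all genes that fell. Of 17 divergent neighbours, which share an upstream region with a member, 4 fell and 6 rose. None of the 88 is a member. RIX1, next to UTP9 and itself a large-subunit assembly gene, was among those that fell. So were PWP1, next to NOP56, and the ribosomal protein genes RPS18A, RPS10B and RPS15, next to UTP6, RRP5 and NOP12. YSP3 and DNL4, on either side of UTP23, both rose, by 0.53 and 0.49 on the log2 scale, while UTP23 had the largest fitted fall of the 44, close to that of NOP13.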
